A study of Nothobranchius furzeri with 3 samples.

Results

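The feature mir-204 (nfu-mir-204 in the table) is 1 row of a small RNA count table made from the skin of Nothobranchius furzeri, the turquoise killifish, a short-lived annual species. It is 1 of 324 features, of which 235 carry a miRNA name, and it was picked by that name after earlier work on these counts had shown its high share. All 3 libraries form 1 group: skin of 39-week-old males of the strain MZM-04/10p, with no treatment, second age or second tissue described. They are called libraries 1, 2 and 3 in accession order and held 5021238, 8545292 and 9590428 counts. The labels give each sample its own code but do not state that each came from a separate fish, so differences between libraries could in part be technical. Because mir-204 was chosen from these same counts and no second group was described, its level and rank are given as a description with no test.

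A miRNA is a short RNA that guides Argonaute proteins to transcripts through its seed, the bases near its 5′ end, and lowers the translation or stability of those transcripts. In vertebrates miR-204 is encoded in an intron of TRPM3, a cation channel gene, and miR-211, which has the same seed, lies in an intron of its relative TRPM1. miR-204 is best known from the retinal pigment epithelium, the lens and the choroid plexus, and in medaka it acts in eye development through the homeobox gene Meis2. miR-211 is known from pigment cells, where TRPM1 is driven by the melanocyte transcription factor MITF. The table has no row named for miR-211, so whether reads of both are pooled under mir-204 was not tested. The mature sequence is not shown, because no sequence table was used here.

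mir-204 had 811730 counts in library 1, 1632421 in library 2 and 1128213 in library 3. As shares of all counts these were 16.2% (95% exact binomial interval 16.1 to 16.2), 19.1% (19.1 to 19.1) and 11.8% (11.7 to 11.8), with a mean of 15.7% ± 3.69 (SD, n = 3). Library 2 was highest, library 3 was lowest, and the intervals, which cover counting error only, lay far apart. The labels mention no molecular identifiers, so copies from PCR may be among them. The most deeply sequenced library thus held the smallest share, while the share of the shallowest lay in between.

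The share of mir-204 exceeded the summed share of all 89 features known only by a prediction number 24.6-fold, 29.95-fold and 24.2-fold in libraries 1, 2 and 3. It was 474, 532 and 346 times the median count of the 115 features averaging at least 100 counts, mir-204 included. Added up from the rarest, 314, 314 and 310 of the other 323 features together stayed below it. A feature this large also sets the scale of the others: with its reads left out of the total, each other share would be 1.19, 1.24 and 1.13 times as large in libraries 1, 2 and 3.

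**Figure D1:**
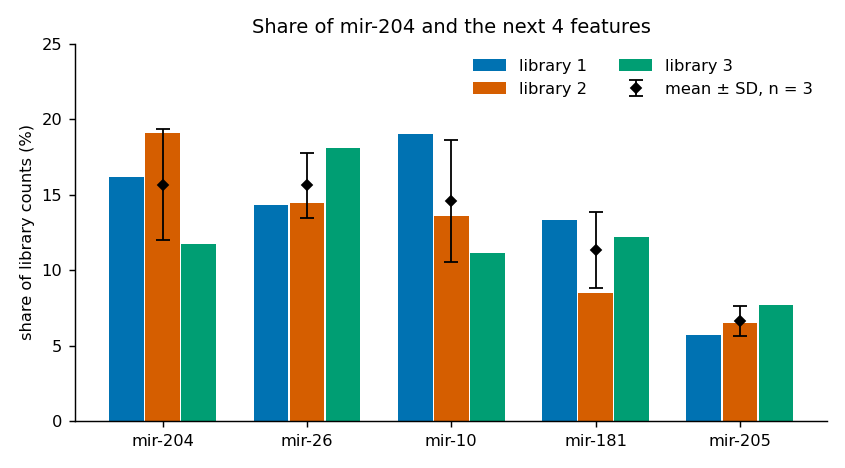
Bars show the share of library counts (%) in each of the 3 libraries for mir-204 and, in order of mean, mir-26, mir-10, mir-181 and mir-205, and diamonds with bars show the mean ± SD. mir-204 reached 19.1% in library 2 and 11.8% in library 3, and its mean of 15.7% was within 1 SD of those of mir-26 and mir-10.

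The rank of mir-204 changed from library to library. It stood second in library 1, behind mir-10 with 955645 counts, first in library 2, ahead of mir-26 with 1235899 counts, and at rank 3 in library 3, behind mir-26 with 1734080 and mir-181 with 1166870 counts. It led the table by the mean of the 3 shares, at 15.7% against 15.6% ± 2.14 for mir-26, a gap far below either SD. By the summed counts of all libraries and by the geometric mean it came second. The mean without library 1 put it second and the mean without library 2 put it at rank 3, so the name of most abundant feature rests on the way of averaging and on libraries 1 and 2.

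Against the other leading features, mir-204 was compared by the ratio of counts within a library, which does not depend on how libraries are scaled. Since adapter ligation favours some small RNAs, a ratio of different miRNAs need not equal that of their molecules. Of the other 19 of the 20 features with the highest mean share, 16 were below mir-204 in every library, and 3 exceeded it in at least 1.

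These 3 were mir-10, mir-26 and mir-181. mir-26, which in vertebrates is hosted by phosphatase genes of the CTDSP family, gave ratios of mir-204 to mir-26 of 1.13 (95% exact interval 1.13 to 1.13), 1.32 (1.32 to 1.32) and 0.651 (0.649 to 0.652) in libraries 1, 2 and 3. The mean log2 ratio was -0.01 ± 0.54 (SD, n = 3), so on the log scale neither stood above the other at this spread. For mir-10, whose family includes genes inside the Hox clusters, the ratios were 0.849 (0.847 to 0.852), 1.41 (1.40 to 1.41) and 1.06 (1.06 to 1.06), a mean log2 ratio of 0.11 ± 0.36. mir-204 was below mir-10 in library 1 alone. For mir-181, best known from lymphocyte development, the ratios were 1.21 (1.21 to 1.22), 2.25 (2.25 to 2.26) and 0.967 (0.964 to 0.969), a mean log2 ratio of 0.47 ± 0.63. These 3 ratios all had their highest value in library 2, and in none of the 3 features did the mean differ from 0 by more than its SD.

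The fifth feature, mir-205, a miRNA of stratified epithelium, was below mir-204 by 2.83-fold, 2.95-fold and 1.53-fold. let-7, which acts in developmental timing, was below it by 5.17-fold, 2.59-fold and 3.33-fold, least in library 2, where the ratios to mir-26 and mir-181 were highest and where let-7 itself was highest. The muscle miRNA mir-133 gave the widest range of the leading 20, with mir-204 exceeding it 10.2-fold, 29.7-fold and 5.43-fold. Over these 19 features the highest library ratio exceeded the lowest by 1.51-fold to 5.47-fold, with a median of 1.99-fold, so none kept a fixed proportion to mir-204 within 1.5-fold. mir-27 and mir-455, both at 1.51-fold, were only just outside. Of the 114 other features averaging at least 100 counts, 14.0% were within this limit, so 19 features are too few to show a difference.

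**Figure D2:**
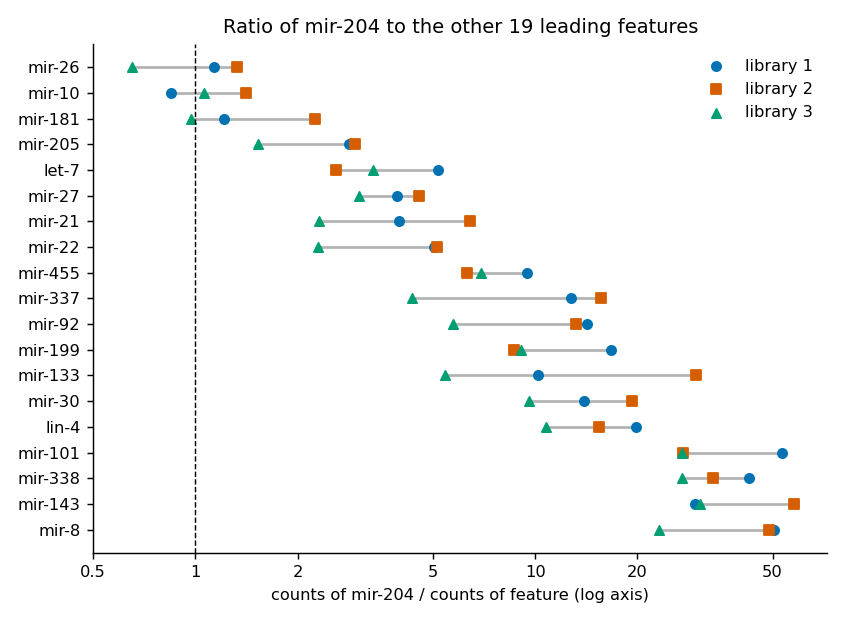
Each row is 1 of the other 19 leading features, and points give the counts of mir-204 divided by the counts of that feature in each library, on a log axis. Only mir-10, mir-26 and mir-181 have a point left of the dashed line at 1, and the span is widest for mir-133, from 5.43 to 29.7.

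To compare libraries, counts were scaled by the trimmed mean of M-values (TMM), which sets the libraries level over most features, and expressed as counts per 1000000 (CPM). In libraries 1, 2 and 3 mir-204 reached 172001, 192721 and 109597 TMM-scaled CPM, a mean of 158106 with an SD of 43269 (27.4% of the mean). The highest library exceeded the lowest 1.76-fold. That is an ordinary range for this table: among the other 114 features averaging at least 100 counts the median was 1.92-fold, 63 varied more and 51 varied less. Among the other 19 leading features 12 varied less with TMM, mir-143 only barely, at 1.75-fold. This count depends on the scaling, and with library totals features such as mir-10 and mir-21 varied more than mir-204. It therefore does not place mir-204 on the variable or the steady side of the leading features.

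The difference of library 3 from the other libraries was larger for mir-204 than for most features, while that between libraries 1 and 2 was near the middle. Library 2 exceeded library 3 by 1.76-fold (95% exact interval 1.75 to 1.76, counting error only), and 23 of the 114 other features had a larger fold, while 60 (52.6%) were higher in library 2 at all. Library 1 exceeded library 3 by 1.57-fold (1.56 to 1.57), and 17 of 114 had a larger fold. Library 2 exceeded library 1 by 1.12-fold (1.12 to 1.12), and 55 of 114 had a larger fold. These counts of larger folds, all in the same direction, hold under any scaling. The count of 60 depends on it. Over the other features the median log2 difference of library 2 from library 3 was 0.05 with TMM and -0.07 with library totals. For mir-204 the 3 log2 differences with TMM were 0.81, 0.65 and 0.16. The medians over the other features were 0.05, -0.13 and 0.13, so that relative to these medians they were 0.77, 0.78 and 0.03.

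The order of libraries 1 and 2 depended on the scaling, while library 3 was lowest under all 5 that were tried. Library 2 exceeded library 1 by 1.18-fold with library totals, 1.22-fold with mir-204 left out of the total and 1.01-fold with DESeq2 size factors. It was below library 1, at 0.98-fold, with TMM on features averaging at least 10 counts. In that scaling mir-204 had 181638, 178075 and 112330 CPM in libraries 1, 2 and 3.

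**Figure D3:**
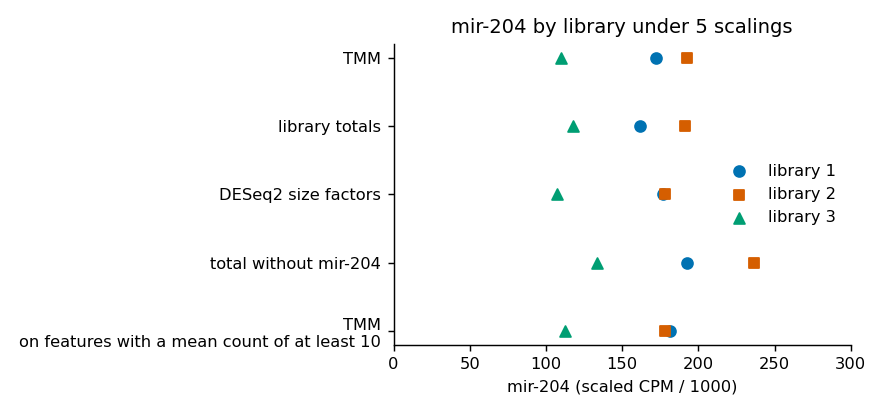
Points show mir-204 in scaled CPM, with the axis divided by 1000, for each library under 5 scalings, 1 row each. Library 3 is lowest in every row, while libraries 1 and 2 lie 1.01-fold apart with DESeq2 size factors and change order in the last row.

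Which features were high and low with mir-204 was described in 2 ways over the 114 others averaging at least 100 counts, without a correlation, since 3 libraries are too few for one. In the TMM-scaled values 22 (19.3%) had the library order of mir-204, highest in library 2 and lowest in library 3, and 17 (14.9%) had the reverse. The other 4 possible orders held 13 to 25 features each. The 95% exact Poisson intervals of all 3 libraries were apart for 14 of the 22, beside 74 of all 114 features in any order. The same order held in each of the 4 scalings in which mir-204 itself has it for 14 features, and the reverse held in all 5 for 13. Library 3 was lowest in 35 of 114 (30.7%).

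The second way asked how nearly a feature kept a fixed ratio to mir-204, and here scaling has no part. The ratio varied by at most 1.5-fold for 16 of 114 features (14.0%), and the same held for 893 of all 6555 pairs of these features (13.6%). Counted in the same way, the other 114 features had a median of 15 such partners, 59 of them fewer than mir-204 and 53 more. The median feature changed 2.14-fold in its ratio to mir-204, with 67 of 114 over 2-fold and 19 over 4-fold. Just inside the limit of 1.5-fold were mir-23 (1.46-fold) and mir-458 (1.49-fold), and just outside were mir-27 (1.51-fold) and mir-455 (1.51-fold).

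mir-148 was the feature most like mir-204. This miRNA, which targets DNA methyltransferase transcripts and MITF in mammals, had 9451, 17836 and 13311 counts, or 2003, 2106 and 1293 TMM-scaled CPM. mir-204 exceeded it 85.9-fold (95% exact interval 84.2 to 87.7), 91.5-fold (90.2 to 92.9) and 84.8-fold (83.3 to 86.2) in libraries 1, 2 and 3. The ratio thus stayed within 1.08-fold over the libraries, although library 2 was above the other 2 beyond counting error.

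The next 7 were lsy-6, mir-489, mir-506, mir-132, mir-217, mir-549 and mir-132b, whose ratios to mir-204 varied 1.15-fold to 1.35-fold. lsy-6 is named after a nematode miRNA that sets the identity of a taste neuron, and mir-132 is induced by neuronal activity in mammals. mir-489, linked to quiescent muscle stem cells in mouse, had 885, 1409 and 1211 counts, and its ratio varied 1.26-fold. The other 6 had mean counts under 1000, such as 93, 153 and 98 counts for mir-217 and 94, 191 and 176 for mir-132b. For 5 of the 8 nearest features, lsy-6, mir-506, mir-217, mir-549 and mir-132b, the exact intervals of the ratio overlapped in all libraries. The 8 were picked for a small range in this same ratio, which favours overlap, and these 5 had wide intervals from low counts. For mir-148, mir-489 and mir-132 the intervals did not all overlap. Overlap of separate intervals does not show that a ratio was fixed within counting error. With an average of at least 1000 counts required, 10 of 74 features were within 1.5-fold.

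Among these better-counted features were the 1 feature of the endothelium list and 2 of the 5 of the list for mesenchyme and smooth muscle. The share within 1.5-fold over all 114 features was 14.0%. mir-143 and mir-145, also on the mesenchyme list, were outside the limit, at 1.97-fold and 3.76-fold. mir-214, a mesenchymal miRNA, had 551, 667 and 474 TMM-scaled CPM and varied 1.35-fold in its ratio to mir-204. mir-199, transcribed together with mir-214 in vertebrates, had 10292, 22266 and 12059, and varied 1.93-fold, so these partners were not equally like mir-204. The endothelial mir-126 had 5185, 4183 and 2910 and varied 1.39-fold, and mir-140, known from cartilage, had 663, 583 and 479 and varied 1.45-fold. mir-31, known from epithelium and hair follicles of mammals, had 169.5, 243 and 147 and varied 1.37-fold. mir-16, a member of a family that restrains the cell cycle, varied 1.42-fold. mir-23 (1.46-fold), mir-27 (1.51-fold) and mir-24 (1.51-fold), which share a transcript, had similar ranges, mir-23 inside the limit and the other two outside it.

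**Figure D4:**
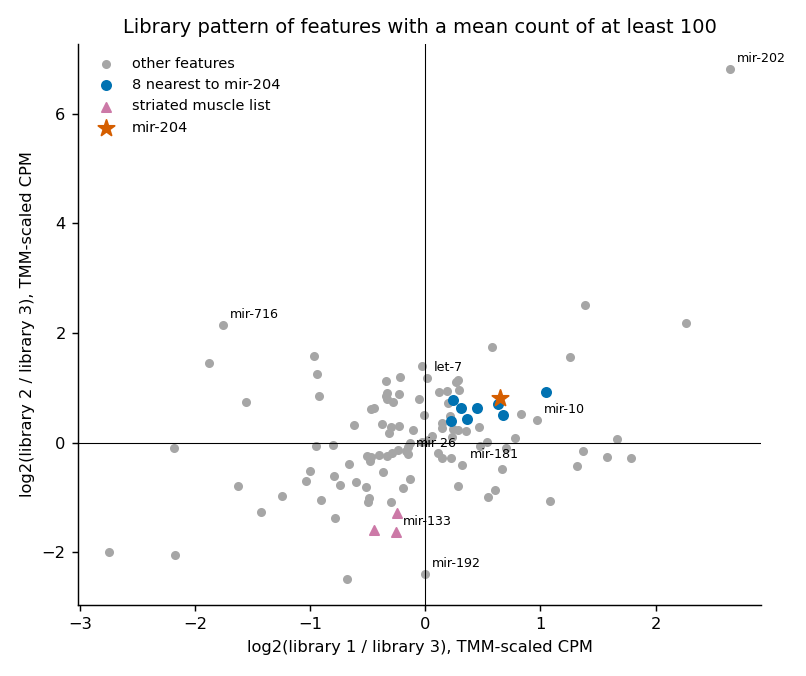
Each point is a feature averaging at least 100 counts, placed by its log2 ratio of library 1 to library 3 (x) and of library 2 to library 3 (y) in TMM-scaled CPM. The star of mir-204 is at 0.65 and 0.81 with its 8 nearest features around it, while the 3 striated muscle features lie below 0 on both axes and mir-202 lies far above the rest.

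Features with the widest range in their ratio to mir-204 were of different kinds. mir-202, known from fish gonads, had the library order of mir-204 but 18.2, 326 and 2.91 TMM-scaled CPM, and its ratio varied 63.5-fold. mir-430, an early-embryo miRNA listed with it, had 1, 7 and 14 counts. The feature named mir-716, with 279, 4182 and 945, varied 13.4-fold, and mir-360, with 18, 54 and 263 counts, varied 10.5-fold. mir-194 (9.89-fold) and mir-192 (9.22-fold), transcribed together and known from gut and liver, were lowest in library 2. mir-192 had 4987, 954 and 5004 TMM-scaled CPM.

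Several abundant features ran opposite to mir-204, with library 3 highest and library 2 lowest, as 14.9% of all 114 features did in the TMM-scaled values. mir-26 did so over a small range, with 152189, 145908 and 168452 TMM-scaled CPM, and with library totals library 1 was its lowest. mir-21, which increases in many injured tissues, had 43392, 30077 and 47476, and mir-337 had 13502, 12298 and 25273. Both kept library 3 highest and library 2 lowest under all 5 scalings, as did mir-133, given below with the muscle list. mir-203, which promotes keratinocyte differentiation, had 2887, 2829 and 4813, but its libraries 1 and 2 were not apart beyond counting error and changed order with library totals. Of the other 19 leading features 2 had the order of mir-204, beside 19.3% of all 114 features. These were let-7, with 33250, 74299 and 32912, and mir-455, with 18129, 30590 and 15868. For let-7 libraries 1 and 3 were nearly level and changed order with library totals, while mir-455 kept the order under all 5 scalings. mir-455 is encoded in the collagen gene COL27A1 in vertebrates.

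Marker miRNAs of cell types that skin can hold were set beside mir-204 as summed lists, leaving mir-204 itself out. In bulk RNA fewer cells of a type and less RNA per cell cannot be told apart. The label of skin was met by mir-205, at 6.63% ± 1.01 of counts (SD, n = 3), mir-8, the fly name of the miR-200 family, at 0.406% ± 0.0949, and mir-203 at 0.356% ± 0.139, while the row mir-200 was at 0 in all 3, which allows up to 0.597, 0.351 and 0.313 CPM (3 counts).

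In libraries 1, 2 and 3 the epidermis list summed to 67109, 72038 and 81358 TMM-scaled CPM, so it was highest where mir-204 was lowest, and mir-204 exceeded it 2.56-fold, 2.68-fold and 1.35-fold. Of its 3 members averaging at least 100 counts 0 had the order of mir-204 and 1, mir-203, had the reverse, beside 19.3% and 14.9% of all 114 features, which is no difference that 3 members could show. The striated muscle list had 17396, 6731 and 20812. All 3 of its members found, mir-133, mir-1 and mir-499, were highest in library 3 and lowest in library 2 under all 5 scalings. This held for 13 of all 114 features, and for 14.9% in the TMM-scaled values alone. It is the reverse of mir-204 in 4 of the 5 scalings, since the order of mir-204 itself changes in the other. The 3 muscle members need not vary independently of each other. mir-204 exceeded the muscle list 9.89-fold, 28.6-fold and 5.27-fold.

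The erythroid list, made of mir-451 and mir-144, had the order of mir-204 with a wider range, at 1205, 2277 and 474 TMM-scaled CPM. mir-451 had 830, 1814 and 317, and mir-144 had 375, 464 and 157. Both had this order, beside 19.3% of all 114 features, but 2 members that need not vary independently are too few to weigh against that share. Neither kept within 1.5-fold of a fixed ratio to mir-204, at 3.26-fold for mir-451 and 1.67-fold for mir-144. The leukocyte list had 5068, 5062 and 4287, with the order of mir-204 in 1 of its 5 members, near the 19.3% of all features. This was mir-142, at 1330, 2416 and 1090. The other members were unlike it and each other. mir-146, the most abundant, had 3287, 1567 and 2696, mir-223 had 363, 973 and 370, and mir-155 and mir-150 were highest in library 3. The list of mesenchyme and smooth muscle had 21072, 27953 and 18090 and kept its ratio to mir-204 within 1.35-fold, but this sum hid unlike members: mir-145 varied 3.76-fold and mir-143 varied 1.97-fold in their ratio to mir-204. The neural list had 1346, 2306 and 2382 and was lowest in library 1. This sum mostly follows mir-128, at 1093, 2028 and 2115, and its members were unlike each other. mir-138 was also highest in library 3, but mir-9, mir-132 and the rare mir-124 were highest in library 2. The rare mir-129 and mir-219 were highest in library 1. The range in the ratio to mir-204 was also taken as a median over list members averaging at least 100 counts. This median was 2.18-fold for epidermis, 5.30-fold for striated muscle, 2.46-fold for erythroid cells and 2.39-fold for leukocytes. It was 1.93-fold for mesenchyme and 1.99-fold for neural miRNAs, beside 2.14-fold over all 114 features. The part that blood, vessel, muscle or epidermal content has in the level of mir-204 was not tested.

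**Figure D5:**
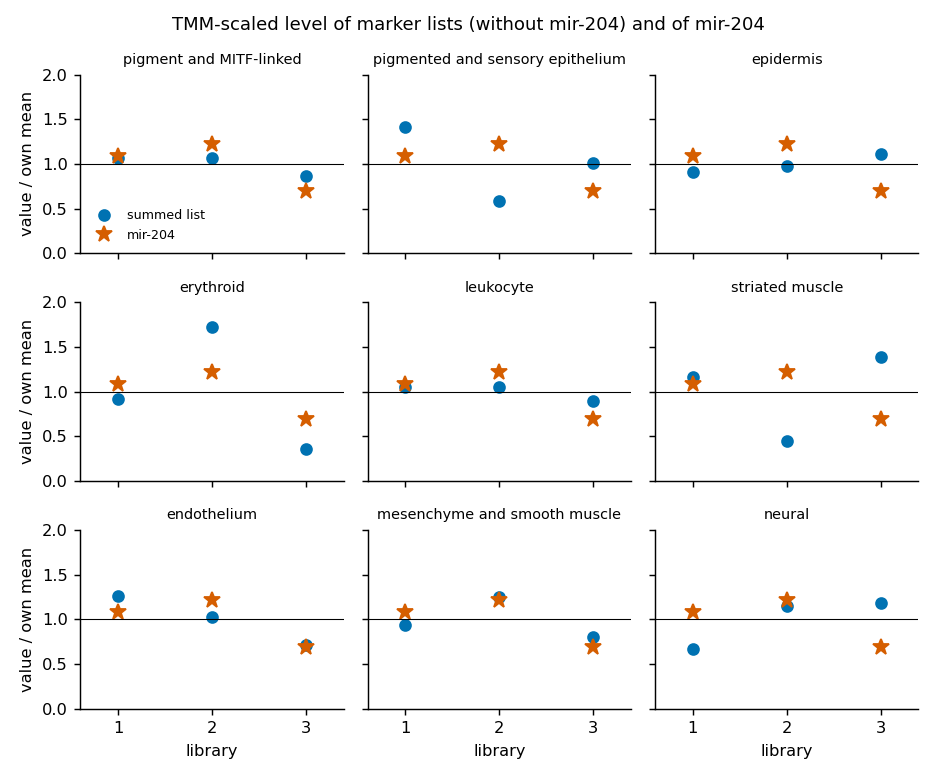
Each panel shows the TMM-scaled level of 1 marker list (circles) and of mir-204 (stars) in libraries 1, 2 and 3, each divided by its own mean over the libraries. The lists of endothelium (1 feature) and of mesenchyme and smooth muscle lie near mir-204 in library 3, though endothelium is highest in library 1. The summed lists of striated muscle, epidermis and neural miRNAs are highest in library 3, the neural sum mostly through mir-128.

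miRNAs linked to pigment cells or to MITF gave no single pattern. Of 10 numbers on this list 9 had a row, and of the 8 besides mir-204, 6 averaged at least 100 counts. Of these 6, mir-148 and mir-218 had the library order of mir-204, and only mir-148 kept within 1.5-fold of a fixed ratio to it, beside 19.3% and 14.0% of all 114 features. mir-218 was nearly level, at 199.2, 201.8 and 196.2 TMM-scaled CPM, and its order was within counting error and changed with each of the other 4 scalings. mir-148 had libraries 1 and 2 in the other order with DESeq2 size factors and with TMM on features averaging at least 10 counts. mir-101 had 3221, 7053 and 4062, and mir-25 and mir-182 were lowest in library 2 under all 5 scalings, at 4145, 3077 and 3740 and at 1044, 737 and 895. So was mir-145, at 3731, 1112 and 1497, which varied 3.76-fold in its ratio to mir-204, the most of these 6. mir-145 is also on the list of mesenchyme and smooth muscle, and mir-182 on that of pigmented and sensory epithelia. mir-137, which targets MITF in mammals, had 5.51, 17.1 and 5.83 TMM-scaled CPM, and mir-340 had 4, 6 and 13 counts. Over the 6 features averaging at least 100 counts the median range in the ratio to mir-204 was 2.06-fold. The 8 features together took 1.34% ± 0.0818 of counts, and mir-204 exceeded their sum 11.99-fold, 13.5-fold and 9.37-fold.

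Other miRNAs of pigmented and sensory epithelia of the eye and ear were rarer than mir-204. mir-184, known from corneal epithelium, had 4776, 1648 and 3273 TMM-scaled CPM, and mir-183, of the sensory organ cluster, had 258, 116 and 162, both lowest in library 2. mir-96, of the same cluster, had 8, 15 and 29 counts. mir-204 exceeded the 4 features of this list together 28.3-fold, 77.0-fold and 25.3-fold, and 0 of its 3 members averaging at least 100 counts had the library order of mir-204, beside 19.3% of all 114 features.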

How the data were processed

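The authors deposited raw read counts, whole numbers per miRNA name with 1 column per library. Per the submitters' processing notes, the tools were BWA 0.7.12-r1039, SAMtools 1.3.1-9, Trimmomatic 0.36 and bcl2fastq 1.8.4. Not given in the sources used here are their roles, the genome build, the miRNA annotation and the counting rule, multi-mapped reads included. Per the labels, total RNA went into Illumina's TruSeq small RNA kit. Names carry no arm, so a value may stand for a precursor or a whole family.

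Shares and CPM were computed from the library totals. TMM factors came from edgeR 4.0.16 (R 4.3.3) and were 0.940, 0.991 and 1.07; DESeq2 1.42.0 size factors were an alternative. Intervals are exact at 95% and cover counting error only. Likeness to mir-204 is the highest over the lowest library ratio to it, for features averaging at least 100 counts. It was tested on simulated data in which planted features had the library profile of mir-204 by construction. That checks the calculation only, not how well it separates real features. Named features were mir-204, the 20 with the highest mean CPM, the 8 nearest to and 5 farthest from mir-204, and up to 5 members of each marker list. Others were chosen after their values were seen. The feature mir-204, the lists and these rules were chosen with earlier results of these data known. Of the feature names 0 matched the RefSeq gene table. Python 3.11.15, scipy 1.17.1 and pandas 2.3.3 were used.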

Additional observations from a re-analysis of the deposited data

How the results depend on the processing

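No paired analysis was possible because the study has 1 group. The share of mir-204 was 15.4% to 15.8% with other feature sets, scaled totals or pooled counts, a move below its SD. With a library left out it was 13.96% to 17.6%. Leaving out 1 of 3 libraries cannot move a mean by its SD, and pooling only reweights the same libraries, so neither shows a stable share. Its rank of 1 became 2 with pooled counts or the geometric mean, and ran from 1 to 3 with a library left out. Its highest-to-lowest ratio of 1.76 was 1.62 with library totals, 1.66 with DESeq2 size factors, 1.77 without mir-204 in the total, 1.73 without the 4 most abundant features and 1.62 with TMM on features averaging at least 10 counts; with a library left out it ran from 1.12 (without library 3) to 1.76. The mean log2 ratio to mir-26 ran from -0.22 to 0.29, changing sign without library 3. For all 19 leading features the mean ratio moved by less than its SD when counts were pooled. Pooling only reweights the same 3 libraries, so it could hardly give a larger move. With a library left out the move cannot reach the SD, so neither setting was a check. Both alternatives were chosen after seeing the data. Features with the order of mir-204 numbered 22, against 18, 20 and 23 with library totals, DESeq2 and mir-204 left out of the total, 14 at an average of at least 1000 counts, 40 among features counted in every library, and 50 to 69 when only 2 libraries are ordered. Settings added after seeing the data were intervals apart (14), the same order in each of 4 scalings (14), libraries 2 and 3 only (60), and TMM on features averaging at least 10 counts (14), where the order of mir-204 itself changes. Features within 1.5-fold of a fixed ratio numbered 16 of 114, against 2 at the tightest limit tried and 47 at a limit of 2. At averages of at least 10 and 1000 counts they numbered 25 of 157 and 10 of 74. They numbered 38 to 55 of 114 with a library left out, which leaves only 2 libraries to differ. Depth limits the features near a mean count of 100.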
